A study of Mus musculus with 16 samples.

Results

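The 9 genes described here are *P2ry12*, *Tmem119*, *Cx3cr1*, *Csf1r*, *Trem2*, *Tyrobp*, *Aif1*, *Itgam* and *Cd68*, which are used to recognise microglia in the mouse brain. They were picked by name, and each was found on the array through the accession of its probes. The arrays carry 13 probes for them, out of 56605 probes in all. Of these, 12 probes of 8 genes entered the test, out of 37253 probes of 16737 named genes. *P2ry12* was left without a complete set of values because its single probe had an outlier mark on 1 array, and it is given from a fit that leaves that array out for it. RNA came from the cerebellar cortex of 16 mice, 4 in each of 4 groups, on 16 Agilent arrays of 1 colour. WT veh and WT NR mice were wild-type littermates of the homozygous *Atm* mutants (strain B6;129S4-Atmtm1Bal/J), in which the gene is disrupted in every cell. WT NR and Atm-/- NR mice drank nicotinamide riboside (NR), a precursor of NAD+, at 3.5 mg/ml (12 mM) for 2 months from 6 weeks of age, and WT veh and Atm-/- veh mice drank water. The labels give all mice as male and 3.5 months old, while 4 arrays lacked the signal of Y-linked genes (2 WT NR, 1 Atm-/- veh and 1 Atm-/- NR). No source says that the mice of a group came from different litters.

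Microglia are the resident macrophages of the brain. They depend on the receptor CSF1R and its ligands for survival, and in healthy tissue they express surveillance genes such as *P2ry12*, *Tmem119* and *Cx3cr1*. When they take up debris or respond to injury, these homeostatic genes usually fall and lysosomal and phagocytic genes such as *Cd68* rise, a switch in which TREM2 and its signalling partner TYROBP take part. *Aif1* encodes IBA1, the protein most often stained to see microglia, and *Itgam* encodes CD11b, an integrin of all myeloid cells. Border macrophages and blood monocytes share several of these genes. In whole tissue, fewer microglia and less RNA per microglial cell cannot be told apart.

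The promoters of 4 members are shown because the results below set these genes against one another: *P2ry12* and *Cd68* as the homeostatic and the phagocytic end, *Trem2* as a gene that followed most other members, and *Itgam* as one whose probes did not. Each line gives the 250 bases before the RefSeq start (build GRCm38.p6), 5′ to 3′ on the strand of the gene. Capitals mark GAGGAA or its reverse complement TTCCTC, the core bound by the myeloid factor PU.1, and TGACTCA or TGAGTCA, the AP-1 site, searched on both strands.
P2ry12, chr3:59262986-59263235, minus strand: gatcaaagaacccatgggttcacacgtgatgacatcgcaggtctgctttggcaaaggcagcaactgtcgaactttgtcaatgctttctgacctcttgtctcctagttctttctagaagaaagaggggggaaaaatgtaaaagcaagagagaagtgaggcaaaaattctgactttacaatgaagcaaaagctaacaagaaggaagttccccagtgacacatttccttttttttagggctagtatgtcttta
Trem2, chr17:48346151-48346400, plus strand: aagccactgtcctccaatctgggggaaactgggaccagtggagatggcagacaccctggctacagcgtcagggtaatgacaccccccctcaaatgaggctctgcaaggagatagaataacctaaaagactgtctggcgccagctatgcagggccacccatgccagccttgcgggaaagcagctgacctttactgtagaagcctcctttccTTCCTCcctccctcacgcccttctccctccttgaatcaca
Itgam, chr7:128062390-128062639, plus strand: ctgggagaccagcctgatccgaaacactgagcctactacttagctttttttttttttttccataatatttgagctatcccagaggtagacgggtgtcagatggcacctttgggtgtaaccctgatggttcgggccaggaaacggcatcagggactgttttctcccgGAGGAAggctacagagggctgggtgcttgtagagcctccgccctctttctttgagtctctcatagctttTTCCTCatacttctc
Cd68, chr11:69666171-69666420, minus strand: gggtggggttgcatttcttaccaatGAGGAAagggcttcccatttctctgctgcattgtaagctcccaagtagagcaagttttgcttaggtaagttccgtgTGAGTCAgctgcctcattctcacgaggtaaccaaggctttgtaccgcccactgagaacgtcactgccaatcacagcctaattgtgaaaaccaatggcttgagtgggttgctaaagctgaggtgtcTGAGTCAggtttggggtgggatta
GAGGAA was present in 4 of the 6 members with a listed promoter, these being *Aif1*, *Cd68*, *Itgam* and *Trem2*, and in 23.3% of all 32851 promoter windows of this length. The AP-1 site was present in *Cd68* alone among the 6, against 4.46% of all windows. A match describes the letters and does not show that a factor binds there.

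All 9 genes had a probe well above background on all 16 arrays, and the second probes of *Cd68*, *Csf1r* and *Cx3cr1* did too, while that of *Itgam* did on 14. Signals are given as log2 of the quantile-normalized brightness, so that 1 unit is a 2-fold difference in brightness, and each gene is represented by its brightest probe. A level cannot be compared between genes, since probes differ in how strongly they bind. The spread between mice of 1 group was larger for these genes than for most: the pooled SD within groups ran from 0.28 for *Trem2* to 0.45 for *Cd68*, and the SD of *Cd68* exceeded that of 85.9% of named genes and the SD of *Trem2* that of 71.2%. Among all named genes the median SD was 0.18.

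The 2 arrays with the highest mean over the members, WT veh 4 and Atm-/- veh 3, stood apart from the rest. On WT veh 4 the mean of the 8 members lay 0.66 above their mean over all arrays, and on Atm-/- veh 3 it lay 0.47 above it. The other 14 arrays lay between -0.26 and 0.17. Other markers moved on the same arrays. On WT veh 4 the 4 measured choroid plexus markers (of 5) lay 4.91 above their mean and the meningeal list 0.73 above it, while the granule cell and Purkinje cell lists lay at -0.51 and -0.53. On Atm-/- veh 3, which is 1 of the arrays without Y-linked signal, the 5 measured erythroid markers (of 6) lay 2.18 above their mean, the border macrophage list 0.53, the monocyte and neutrophil list 0.82 and the endothelial list 0.58. The summed signal of the choroid plexus markers (log2) ranged over 12.08 to 18.22 in WT veh, 12.10 to 13.26 in WT NR, 11.61 to 12.77 in Atm-/- veh and 11.59 to 12.02 in Atm-/- NR. That of the erythroid markers ranged over 18.26 to 18.76, 17.92 to 18.48, 17.74 to 19.95 and 18.35 to 18.62 in the same order. All measured choroid plexus, erythroid and endothelial markers were well above background on all 16 arrays, as were 7 of the 8 border macrophage markers and 6 of the 8 measured monocyte and neutrophil markers, so that none of these cell types was without signal. The part of these cells in the microglial signal was not tested.

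**Figure D1:**
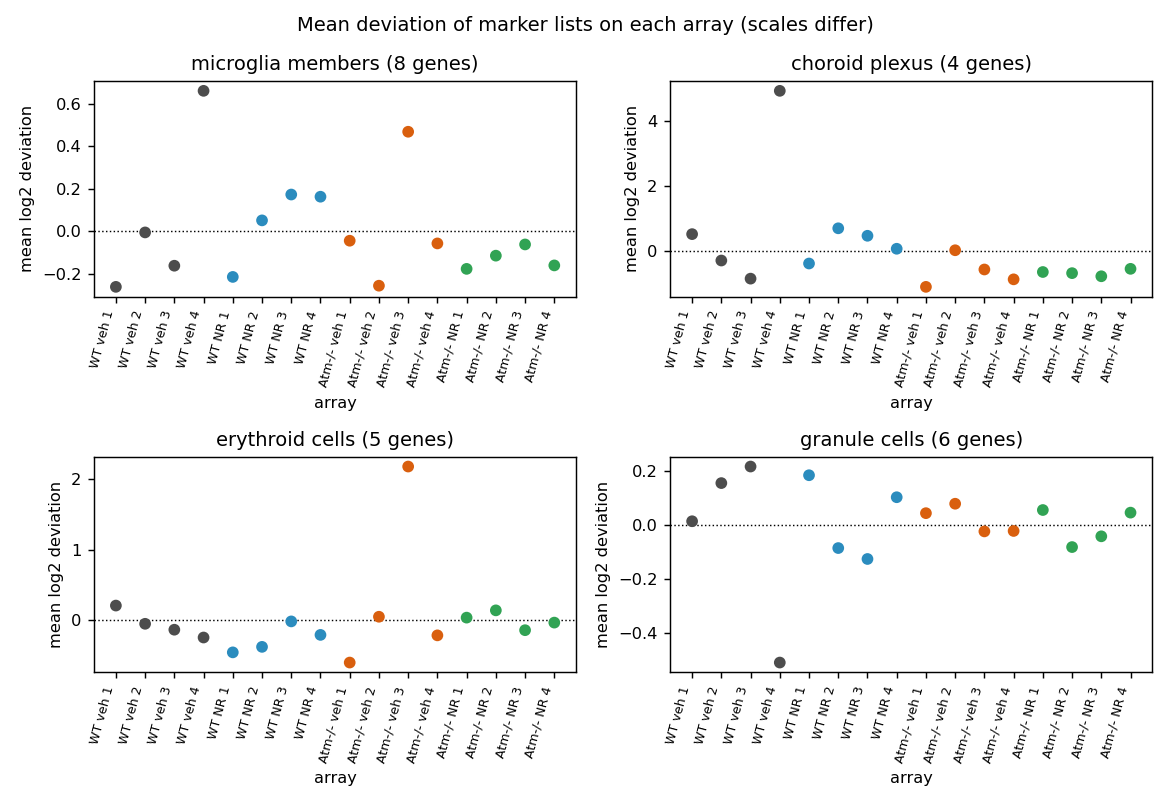
Mean over each marker list of how far each gene lay from its own average on that array (vertical axis, log2 units; scales differ between panels), 1 point per array, coloured by group. WT veh 4 is highest for the microglia genes (0.66) and for choroid plexus (4.91) and lowest for granule cells (-0.51), and Atm-/- veh 3 is highest for erythroid cells (2.18).

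Loss of *Atm* in mice on water was addressed by Atm-/- veh against WT veh. None of the 8 members passed the test (limma, adjusted p under 0.05), beside 0.0538% of named genes. At an unadjusted p under 0.05 there was 1 member, *Itgam*, beside 16.8% of named genes, and the methods' t-test at its threshold called 0, beside 11.7% of all probes. *P2ry12*, outside the 8, had an unadjusted p of 0.010 (limma). The median change of the 8 was 0.01 on the log2 scale, against -0.03 over all named genes, with 4 members higher and 4 lower. *P2ry12*, *Cx3cr1*, *Csf1r* and *Aif1* had mean differences of -0.58, -0.39, -0.37 and -0.24. *Tmem119*, also a homeostatic gene, stood at 0.07, and *Cd68* and *Itgam* stood at 0.16 and 0.50.

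The purinergic receptor gene *P2ry12*, by which microglia sense ATP, had log2 signals of 9.68, 9.48, 9.32 and 10.28 in WT veh and 9.17, 9.26, 8.86 and 9.16 in Atm-/- veh. All 4 Atm-/- veh arrays lay below all 4 WT veh arrays, a separation seen in that direction for 4.84% of named genes. The difference was -0.58 (95% interval -0.99 to -0.17, limma adjusted p = 0.235). Without WT veh 4, its highest array, it was -0.38 (limma adjusted p = 0.27), and without both arrays that stood apart -0.30. *P2ry12* was lowest on Atm-/- veh 3, the array on which most other members were highest in that group.

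*Cx3cr1*, the receptor for the neuronal chemokine fractalkine, had log2 signals of 12.01, 12.00, 11.56 and 12.64 in WT veh and 11.50, 11.68, 12.02 and 11.42 in Atm-/- veh, and the groups overlapped. The difference was -0.39 (95% interval -0.84 to 0.05, limma adjusted p = 0.4) for this probe and 0.12 for a second, dimmer one. The brighter probe differed by -0.20 without WT veh 4. *Csf1r* had 13.48, 13.69, 13.47 and 14.35 in WT veh and 13.15, 13.20, 13.90 and 13.24 in Atm-/- veh, which also overlapped, with 3 Atm-/- veh arrays below every WT veh array. Its difference was -0.37 (95% interval -0.81 to 0.07, limma adjusted p = 0.417), or -0.17 without WT veh 4 and -0.55 without Atm-/- veh 3. Its second, dimmer probe went the other way, by 0.30 (95% interval 0.02 to 0.58, limma adjusted p = 0.317), without overlap (seen in that direction for 3.9% of named genes), and the correlation of both probes over the 16 arrays was -0.07. The direction of *Csf1r* therefore differed between its probes.

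*Tmem119*, a surface protein of parenchymal microglia, had log2 signals of 8.92, 9.80, 9.54 and 10.70 in WT veh and 9.91, 9.61, 10.03 and 9.70 in Atm-/- veh, a difference of 0.07 (95% interval -0.51 to 0.66, limma adjusted p = 0.919). WT veh spanned the widest range of any group for this gene, from WT veh 1 to WT veh 4. Without WT veh 4 the difference of *Tmem119* was 0.40, and without both arrays that stood apart 0.32. For *Aif1* the values were 10.35, 10.64, 10.55 and 11.41 in WT veh and 10.29, 10.24, 11.03 and 10.46 in Atm-/- veh, a difference of -0.24 (95% interval -0.74 to 0.26, limma adjusted p = 0.664). The difference of *Aif1* was -0.013 without WT veh 4, so that it rested on that array, and -0.41 without Atm-/- veh 3. The interval includes 0, and differences of *Aif1* inside it were not resolved with 4 arrays a group. *Trem2*, the receptor for lipids and debris, had 10.95, 11.23, 11.04 and 11.75 in WT veh and 11.14, 11.08, 11.68 and 11.28 in Atm-/- veh, and *Tyrobp*, its adaptor, had 10.88, 11.25, 11.02 and 11.73 in WT veh and 11.06, 10.74, 11.72 and 11.27 in Atm-/- veh. In both genes WT veh 4 and Atm-/- veh 3 were the highest arrays of their groups. They differed by 0.05 (95% interval -0.36 to 0.46) and -0.02 (95% interval -0.46 to 0.41), and both changed sign under some of the alternative settings.

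*Cd68*, a lysosomal glycoprotein of phagocytes, had log2 signals of 9.75, 10.06, 10.01 and 11.06 in WT veh and 10.12, 9.87, 11.34 and 10.17 in Atm-/- veh. In each group 1 array, WT veh 4 and Atm-/- veh 3, lay far above the rest. The difference was 0.16 (95% interval -0.49 to 0.80, limma adjusted p = 0.839), turning to -0.17 without Atm-/- veh 3 and rising to 0.44 without WT veh 4. The second probe of *Cd68* differed by 0.13. *Itgam* had 15.997, 15.73, 15.94 and 16.09 in WT veh and 16.91, 15.96, 16.45 and 16.44 in Atm-/- veh, a difference of 0.50 (95% interval 0.07 to 0.93, limma adjusted p = 0.286), with 3 Atm-/- veh arrays above every WT veh array. Its bright probe was brighter than 98.2% of all kept probes, and its second probe, at 5.26 on average, differed by -0.15. The probes of *Itgam* had a correlation of 0.06 over the 16 arrays, so that its changes are those of 1 probe. Whether that probe reports *Itgam* of microglia was not tested.

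**Figure D2:**
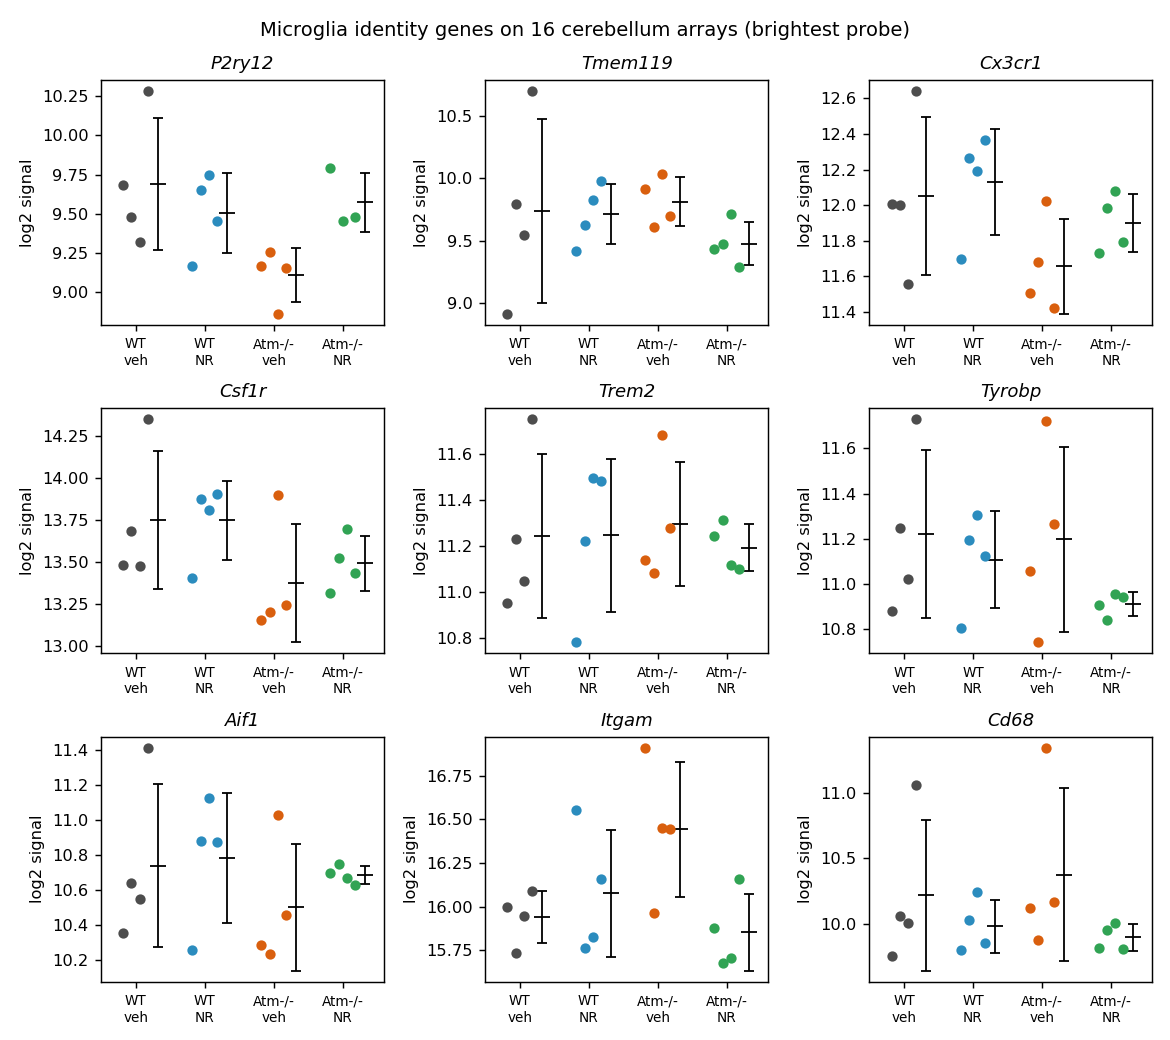
Log2 signal of the brightest probe of each gene (vertical axis) on each array, by group (horizontal axis). Points are arrays, and the bar beside them is the mean ± SD of the group (n = 4, or 3 for *P2ry12* in Atm-/- NR, where the marked spot is left out). The Atm-/- veh points of *P2ry12* (9.17, 9.26, 8.86 and 9.16) lie below all WT veh points, and most other panels show 1 high array in WT veh and 1 in Atm-/- veh.

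The effect of NR in the mutant was addressed by Atm-/- NR against Atm-/- veh. Again none of the 8 members passed (limma, adjusted p under 0.05), beside 11.5% of named genes. At an unadjusted p under 0.05 there was 1 member, *Itgam*, beside 30.5% of named genes, and *P2ry12*, outside the 8, had an unadjusted p of 0.044 (limma). The methods' t-test at its threshold called 2, *Itgam* and *Tmem119*, beside 26.9% of all probes. The median change of the members was -0.19, against 0.04 over all named genes, with 3 members higher and 5 lower. It was -0.04 without Atm-/- veh 3. The Atm-/- NR arrays also had fewer probes well above background than the Atm-/- veh arrays, with 34945 to 37817 against 39134 to 41905 and no overlap, and its part in these differences was not tested.

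Differences in Atm-/- NR were positive for *P2ry12*, *Cx3cr1*, *Aif1* and *Csf1r*. *P2ry12* had log2 signals of 9.79, 9.45 and 9.48 on the 3 Atm-/- NR arrays without a mark, all above the 4 Atm-/- veh arrays, a separation seen in that direction for 16% of named genes over 4 arrays a group. The difference was 0.46 (95% interval 0.02 to 0.91, limma adjusted p = 0.171), and 0.89 (limma adjusted p = 0.111) with the marked spot used as it is. *Cx3cr1* had 11.73, 11.99, 12.08 and 11.79 in Atm-/- NR, a difference of 0.24 (95% interval -0.21 to 0.69, limma adjusted p = 0.482), while its dimmer probe differed by -0.34. *Aif1* had 10.70, 10.75, 10.67 and 10.63 and *Csf1r* had 13.31, 13.52, 13.70 and 13.43 in Atm-/- NR, differences of 0.18 and 0.12. The second probe of *Csf1r* differed by 0.11. Without Atm-/- veh 3 the differences were 0.36 for *Aif1*, 0.29 for *Csf1r* and 0.36 for *Cx3cr1*, none passing. The 4 Atm-/- NR arrays of *Aif1* lay above 3 of the Atm-/- veh arrays and below Atm-/- veh 3. This comparison and the one before share the Atm-/- veh arrays, so that a low value on those arrays gives opposite signs in both.

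Differences in Atm-/- NR were negative for the other 5 members. *Itgam* had log2 signals of 15.88, 15.68, 15.70 and 16.16 in Atm-/- NR, 3 of them below all Atm-/- veh arrays, and differed by -0.59 (95% interval -1.02 to -0.16, limma adjusted p = 0.0796). Without Atm-/- veh 2, its lowest array in that group, the difference was -0.75 (limma adjusted p = 0.029), which passed. Leaving out each array of these groups in turn, the difference of *Itgam* ran from -0.75 to -0.43, with limma adjusted p up to 0.218. *Itgam* passed in no other of these fits. Its second probe differed by 0.05. *Cd68* had 9.82, 9.95, 10.01 and 9.81 in Atm-/- NR and differed by -0.48 (95% interval -1.12 to 0.16, limma adjusted p = 0.319), with a second probe at -0.63. Without Atm-/- veh 3 the difference of *Cd68* was -0.16. *Tmem119* had 9.43, 9.47, 9.71 and 9.29 in Atm-/- NR, with 3 arrays below all Atm-/- veh arrays, and *Tyrobp* had 10.91, 10.84, 10.96 and 10.94. *Tmem119* differed by -0.34, *Tyrobp* by -0.28 and *Trem2* by -0.10, with adjusted p from 0.381 to 0.767 (limma), and without Atm-/- veh 3 *Tyrobp* differed by -0.11 and *Trem2* changed sign.

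**Figure D3:**
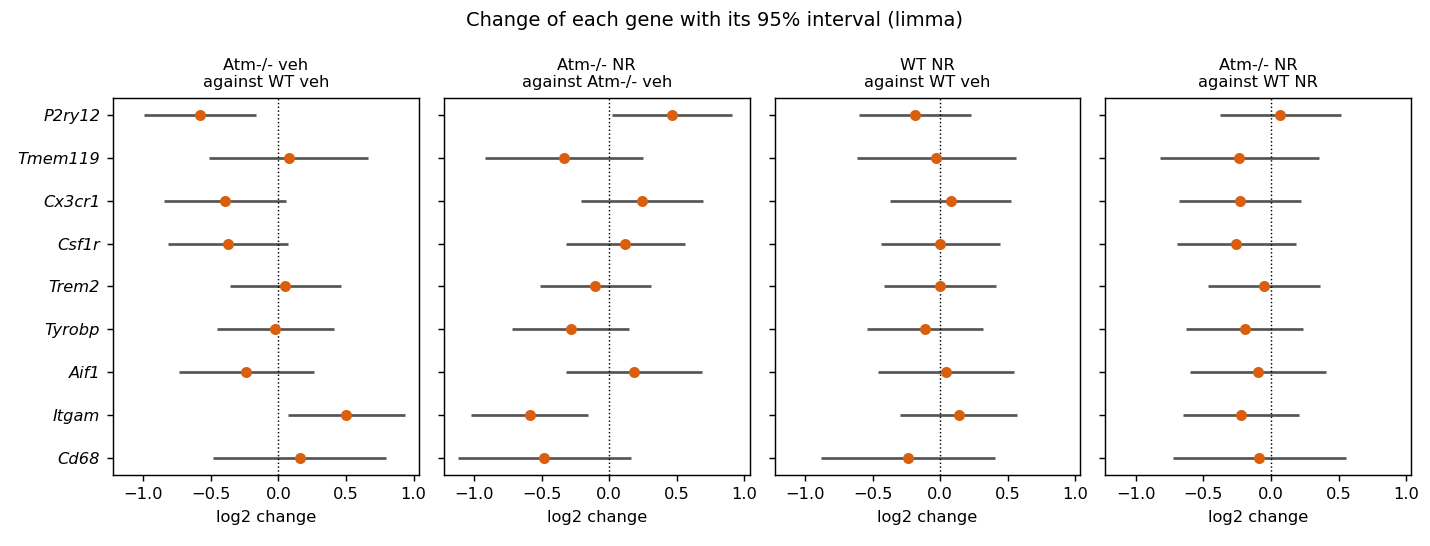
Change of each gene (points, log2 units on the horizontal axis) with its 95% interval from limma (lines) in 4 comparisons between groups. Most intervals include 0. Those that do not belong to *P2ry12* (-0.58) and *Itgam* (0.50) in Atm-/- veh against WT veh and to the same genes (0.46 and -0.59) in Atm-/- NR against Atm-/- veh, and none passed the adjusted threshold.

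The effect of NR in WT mice was addressed by WT NR against WT veh. None of the 8 members passed (limma, adjusted p under 0.05), beside 0% of named genes. There were 0 members at an unadjusted p under 0.05, beside 8.84% of named genes, and 0 by the methods' t-test, beside 6.65% of all probes. Their changes, by the brightest probes, ran from -0.24 for *Cd68* to 0.14 for *Itgam*, with a median of 0.00 against -0.01 over all named genes. The second probes of *Cd68*, *Csf1r*, *Cx3cr1* and *Itgam* differed by -0.42, 0.21, 0.06 and -0.13. *P2ry12* had 9.17, 9.65, 9.75 and 9.45 in WT NR and differed by -0.19. *Cd68* had 9.80, 10.03, 10.25 and 9.86, *Itgam* 16.56, 15.76, 15.83 and 16.16 and *Cx3cr1* 11.70, 12.26, 12.19 and 12.37 in WT NR. All 3 genes overlapped between WT NR and WT veh. The median change of the members was 0.19 without WT veh 4.

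Between the NR groups (Atm-/- NR against WT NR), all 8 members had negative differences on their brightest probes. These ran from -0.05 for *Trem2* to -0.26 for *Csf1r*, with a median of -0.21 against 0.01. None passed (limma, adjusted p under 0.05), beside 0.0597% of named genes. The second probes of *Csf1r* and *Itgam* had positive differences (0.20 and 0.02), and those of *Cx3cr1* and *Cd68* negative ones (-0.29 and -0.07). There were 0 members at an unadjusted p under 0.05, beside 4.34% of named genes, and 0 by the methods' t-test, beside 6.42% of all probes. *P2ry12* differed by 0.07. As the members other than *Itgam* moved together from array to array, 8 of the same sign are not 8 separate observations. The NR effect was not shown to differ between genotypes for any member: none passed the interaction test (limma, adjusted p under 0.05), beside 0% of named genes, with 1 at an unadjusted p under 0.05, beside 5.96%. *Itgam* came nearest, with an interaction of -0.73 (95% interval -1.34 to -0.12, limma adjusted p = 0.839), and that of *P2ry12* was 0.65 (95% interval 0.04 to 1.26, limma adjusted p = 0.842). The second probe of *Itgam* had an interaction of 0.17, and those of *Cd68*, *Csf1r* and *Cx3cr1* had -0.21, -0.10 and -0.40.

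The members varied together from array to array. Over the 16 arrays, the Pearson correlation between pairs of the 7 tested members other than *Itgam* ran from 0.39 to 0.93 (21 pairs, median 0.75), and from 0.68 to 0.97 once each group mean was removed. The points share an array, its normalization and its tissue piece, so that these are descriptions. Without WT veh 4 and Atm-/- veh 3 the range was -0.05 to 0.92 (median 0.51). *Tyrobp* followed the mean of the other members most closely (r = 0.91), then *Trem2* (0.87). *Itgam* did not follow them on its bright probe (r = -0.07), with correlations of -0.42 to 0.23 with single members. Nor did its second probe (r = -0.25). *P2ry12*, on 15 arrays, followed *Cx3cr1* (r = 0.65), *Aif1* (0.55) and *Csf1r* (0.52) more than *Cd68* (0.01). The correlation of *P2ry12* with the mean of the members was 0.30 on these arrays and 0.69 on the 14 without Atm-/- veh 3. Its low likeness to the members as a whole therefore rested on that array.

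**Figure D4:**
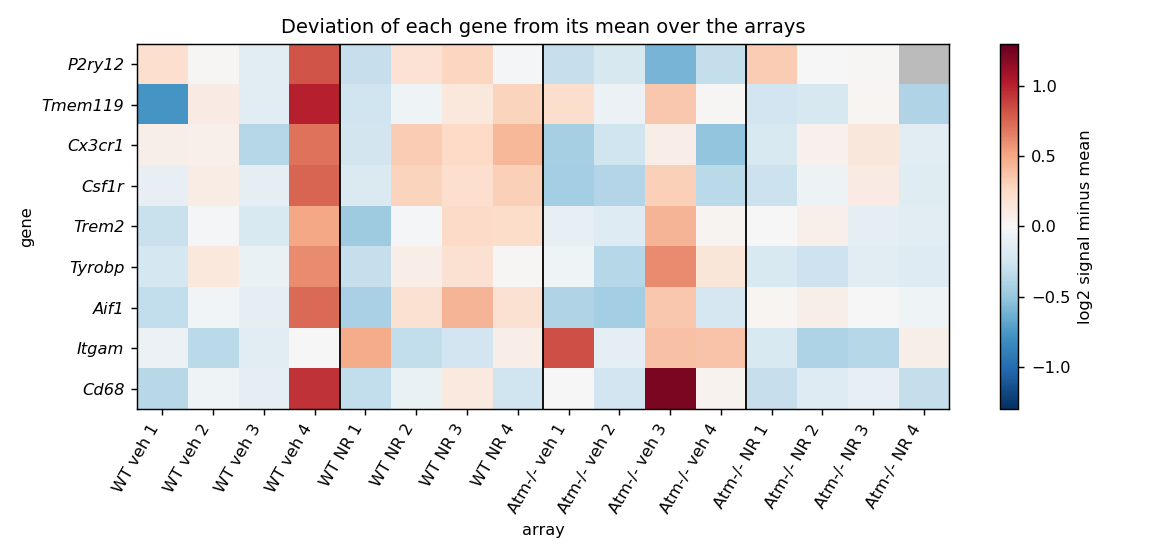
Log2 signal of each gene (rows) on each array (columns) minus the mean of the gene, from blue (below) to red (above); grey is the marked spot of *P2ry12*, and lines separate the groups. WT veh 4 is red in nearly all rows (members' mean 0.66), and Atm-/- veh 3 is above the mean of the gene in every row but *P2ry12* (members' mean 0.47).

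The genes whose signal over the 16 arrays was most like the mean of the members were *P2ry6* (r = 0.94), *Ctss* (0.93), *Tgfbi*, *Lcp2*, *Irf5*, *Rnase4*, *Ly86*, *Tnfaip8l2*, *Abi3* and *Spint1*, the last at r = 0.88. *P2ry6* is a receptor for UDP that takes part in microglial phagocytosis and *Ctss* encodes the lysosomal protease cathepsin S. Both were in the list of homeostatic genes, and the other 8 were in none of the lists used here. Without WT veh 4 and Atm-/- veh 3 the correlations of these 10 genes ran from 0.54 to 0.85. None of the 10 passed the test between Atm-/- NR and Atm-/- veh, with adjusted p from 0.443 to 0.865 (limma), or between Atm-/- veh and WT veh, with adjusted p from 0.584 to 0.994 (limma). Of named genes, 11.5% and 0.0538% passed in these comparisons.

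Because the members shared so much of their variation, the difference between a pair of them within an array was also examined. This was done after the values were seen, for 9 pairs, and without a test. The differences are centred, so that 0 is the mean of the 16 arrays. *Cd68* minus *Cx3cr1* was 0.01 to 1.13 in Atm-/- veh and -0.26 to -0.10 in Atm-/- NR, without overlap, and -0.44 to 0.26 in WT veh and -0.69 to -0.08 in WT NR. *Cd68* minus *Csf1r* was 0.14 to 0.92 in Atm-/- veh against -0.22 to -0.03 in Atm-/- NR, and *Cd68* minus *Aif1* was 0.20 to 0.87 against -0.32 to -0.10. Both again separated Atm-/- veh from Atm-/- NR, and both overlapped between Atm-/- veh and WT veh. *Trem2* minus *Csf1r* was 0.13 to 0.38 in Atm-/- veh and -0.25 to -0.08 in WT veh, without overlap. Of the 9 pairs, which share members, 3 did not overlap between Atm-/- NR and Atm-/- veh and 1 did not between Atm-/- veh and WT veh. For single named genes, 26.3% did not overlap between Atm-/- NR and Atm-/- veh and 8.74% did not between Atm-/- veh and WT veh. The differences with *Csf1r* or *Cx3cr1* rest on the brightest probes of these genes. With the dimmer probes instead, *Cd68* minus *Cx3cr1* and *Cd68* minus *Csf1r* overlapped between Atm-/- veh and Atm-/- NR. *Trem2* minus *Csf1r* then overlapped between Atm-/- veh and WT veh. The dimmer probe of *Cx3cr1* followed the mean of the other members more closely than the brightest did (r = 0.83 against 0.59).

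**Figure D5:**
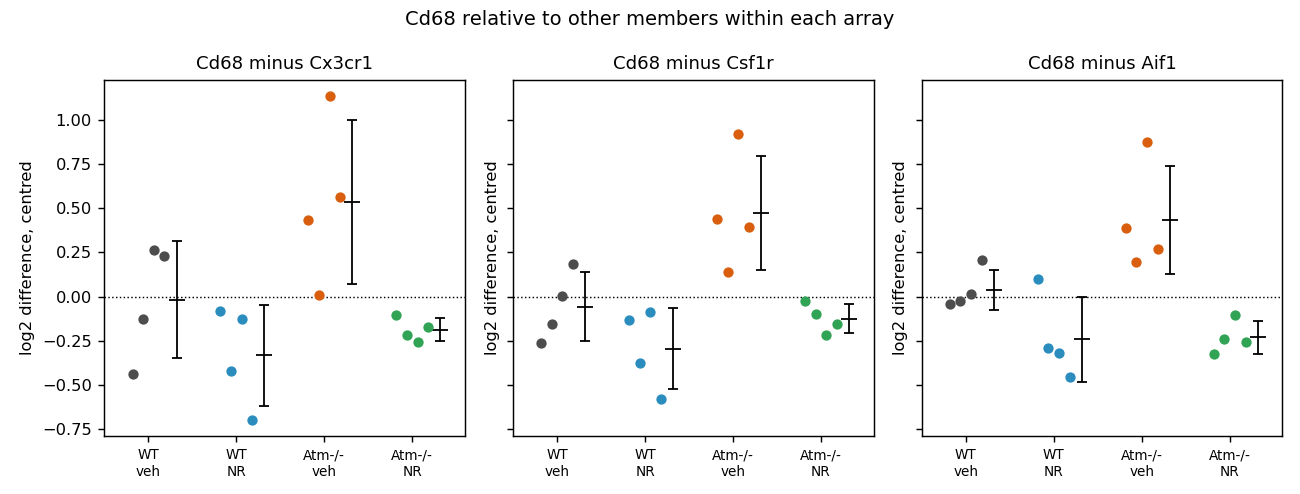
Log2 signal of *Cd68* minus that of *Cx3cr1*, *Csf1r* or *Aif1* on the same array (vertical axis, centred on the mean of all arrays), by group; points are arrays and bars the mean ± SD (n = 4). In each panel all Atm-/- veh points lie above all Atm-/- NR points, with lowest Atm-/- veh values of 0.01, 0.14 and 0.20. The brightest probe of each gene is used.

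Other microglial genes were set beside the members in Atm-/- NR against Atm-/- veh. Of 21 other homeostatic genes, all measured, 2 rose and 1 fell, and 18 did not pass, with a median change of 0.06, beside 6.67% of named genes higher and 4.8% lower. *Sall1*, a transcription factor that maintains microglial identity, had log2 signals of 6.88, 7.19, 7.11 and 7.16 in Atm-/- veh and 8.74, 8.04, 8.04 and 7.38 in Atm-/- NR, without overlap (seen in that direction for 16% of named genes). It rose by 0.97 ± 0.27 (SE, limma adjusted p = 0.043). The WT veh arrays had 7.64, 7.66, 7.33 and 8.47, and the difference of Atm-/- veh from WT veh was -0.69 ± 0.27 (SE, limma adjusted p = 0.283). Its call was lost in 13 of 20 alternative settings, 7 of which left out a single array (Atm-/- veh 1, Atm-/- veh 2, Atm-/- veh 3, Atm-/- veh 4, Atm-/- NR 1, Atm-/- NR 2, Atm-/- NR 3), with changes there of 0.74 to 1.0 and limma adjusted p up to 0.114. The settings that lost it include the arrays with Y-linked signal alone, where the change was 1.20 (limma adjusted p = 0.061).

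*Gpr34*, a receptor for lysophosphatidylserine, had 8.27, 8.62, 8.56 and 8.27 in Atm-/- veh and 9.02, 9.18, 9.54 and 9.03 in Atm-/- NR, without overlap (seen in that direction for 16% of named genes). It rose by 0.76 ± 0.20 (SE, limma adjusted p = 0.030). A second probe differed by 0.60 ± 0.40 (SE, limma adjusted p = 0.347). Its call was lost in 6 of 20 alternative settings, 4 of which left out a single array (Atm-/- veh 1, Atm-/- veh 4, Atm-/- NR 2, Atm-/- NR 3), with changes there of 0.65 to 0.77 and limma adjusted p up to 0.0954. The difference of Atm-/- veh from WT veh was -0.49 ± 0.20 (SE, limma adjusted p = 0.284). *Mertk*, a receptor for engulfing dying cells that astrocytes express too, fell by 0.50 ± 0.14 (SE, limma adjusted p = 0.041). Its call was lost in 10 of 20 alternative settings, 6 of which left out a single array (Atm-/- veh 1, Atm-/- veh 3, Atm-/- veh 4, Atm-/- NR 1, Atm-/- NR 3, Atm-/- NR 4), with changes there of -0.59 to -0.38 and limma adjusted p up to 0.115. For *Gpr34* and *Mertk* alike, the settings that lost the call include the arrays with Y-linked signal alone. The changes there were 0.86 and -0.40 (limma adjusted p = 0.067 and 0.163). In Atm-/- veh against WT veh, 0 of the 21 passed (limma; 3 at an unadjusted p under 0.05, beside 16.8% of named genes), with a median of -0.17 against -0.03 over all named genes, and the largest differences were those of *Slc2a5* (-0.78), a fructose transporter, and *Sall1* (-0.69).

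Of 19 ligands, partners and regulators of microglia, 16 were tested, and 1 fell in Atm-/- NR against Atm-/- veh with 0 rising (median -0.13), which is 6.25% called beside 11.5% of named genes. *Spi1*, which encodes PU.1, and *Cd200r1* were not detected on all arrays of any group, and *Syk* had a marked spot. The gene that fell was *Tgfb1*, the growth factor that sustains the homeostatic state. It had 7.89, 7.88, 7.71 and 7.69 in Atm-/- veh and 6.84, 7.28, 7.12 and 6.65 in Atm-/- NR, without overlap (seen in that direction for 10.3% of named genes), and fell by 0.82 ± 0.15 (SE, limma adjusted p = 0.0094). In WT NR against WT veh its difference was -0.58 ± 0.15 (SE, limma adjusted p = 0.476), and its call in Atm-/- mice held in 19 of 20 alternative settings, the exception being the mean of its probes. Its second probe differed by -0.64 ± 0.39 (SE, limma adjusted p = 0.311) and did not pass. The CSF1R ligands *Csf1* and *Il34* differed by -0.25 ± 0.13 (SE, limma adjusted p = 0.223) and 0.37 ± 0.29 (SE, limma adjusted p = 0.443), neither passing the threshold.

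Of 27 genes of disease-associated and activated microglia, 24 were tested, and 2 fell and 0 rose in Atm-/- NR against Atm-/- veh (median -0.15), which is 8.33% called beside 11.5% of named genes. *Gpnmb*, a glycoprotein of phagocytes, had 7.64, 8.12, 8.40 and 7.69 in Atm-/- veh and 7.15, 7.53, 7.15 and 7.01 in Atm-/- NR, without overlap (seen in that direction for 10.3% of named genes). It fell by 0.75 ± 0.19 (SE, limma adjusted p = 0.030), and its difference in Atm-/- veh against WT veh was 0.61 ± 0.19 (SE, limma adjusted p = 0.216). *Ctsd*, the lysosomal protease cathepsin D, which neurons express too, fell by 0.38 ± 0.09 (SE, limma adjusted p = 0.027). The call of *Gpnmb* was lost in 7 of 20 alternative settings, 5 of which left out a single array (Atm-/- veh 2, Atm-/- veh 3, Atm-/- NR 1, Atm-/- NR 3, Atm-/- NR 4), with changes there of -0.73 to -0.60 and limma adjusted p up to 0.0811. That of *Ctsd* was lost in 8 of 20 alternative settings, 6 of which left out a single array (Atm-/- veh 1, Atm-/- veh 3, Atm-/- NR 1, Atm-/- NR 2, Atm-/- NR 3, Atm-/- NR 4), with changes there of -0.40 to -0.34 and limma adjusted p up to 0.0807. For *Gpnmb* and *Ctsd* alike, the settings that lost the call include the arrays with Y-linked signal alone. The changes there were -0.54 and -0.32 (limma adjusted p = 0.159 and 0.135). In Atm-/- veh against WT veh, 0 of the 24 passed (limma), beside 0.0538% of named genes. At an unadjusted p under 0.05 there were 3, beside 16.8%. The median of this list was -0.06 there, against -0.03 over all named genes, and its largest differences were those of *Spp1* (-0.85) and *Timp2* (-0.81).

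Of 20 phagocytosis and lysosome genes, 17 were tested and 0 passed in Atm-/- NR against Atm-/- veh (limma), beside 11.5% of named genes. At an unadjusted p under 0.05 there were 2, beside 30.5%, and the median change was -0.12. The largest changes were those of the complement genes *C1qa* (-0.67) and *C1qc* (-0.62). Markers of the M1 and M2 states were mostly dim. Of 12, 8 were tested, and *Il6*, *Il1b*, *Retnla* and *Il10* were not detected on all arrays of any group. None of the 8 passed in any of the 5 comparisons (limma; 2 at an unadjusted p under 0.05 in Atm-/- veh against WT veh, beside 16.8% of named genes, and 1 in Atm-/- NR against Atm-/- veh, beside 30.5%). Their median change in Atm-/- veh against WT veh was 0.02, against -0.03 over all named genes, and *Arg1* and *Chil3* had the largest changes. In Atm-/- NR against Atm-/- veh the median was 0.16, against 0.04. *Arg1*, an M2 marker, had 7.20, 5.22, 4.57 and 5.84 in WT veh, 6.19, 7.14, 7.22 and 7.02 in Atm-/- veh and 6.76, 6.46, 6.54 and 6.56 in Atm-/- NR. *Arg1* differed by 1.19 ± 0.41 (SE, limma adjusted p = 0.238) in the first pair of groups and by -0.31 ± 0.41 (SE, limma adjusted p = 0.654) in the second. *Chil3*, another M2 marker, differed by 1.02 ± 0.79 (SE, limma adjusted p = 0.574) in Atm-/- veh against WT veh, and was not well above background on every array.

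Some facts of the whole series bear on these results. WT arrays were all on 1 slide and Atm-/- arrays on another, so that genotype and slide cannot be told apart, and within each slide the veh arrays were on 1 row and the NR arrays on the other, so that row and NR cannot be told apart. The number of probes well above background ran from 34945 to 42559 per array, and no spot was saturated. *Atm* itself differed by -0.35 ± 0.11 (SE, limma adjusted p = 0.221) in Atm-/- veh against WT veh. Where its probe lies relative to the disrupted part was not settled, so that this value does not check the labels.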

How the data were processed

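RNA was measured on 16 arrays of 1 colour, 4 per group, with groups from the sample labels. The authors deposited scanner intensity values per spot (Agilent Feature Extraction 12.0.3.1), background-subtracted and not brought to a common scale. They also deposited a table of z-scores. The score values were made by the authors before deposit, and quantile normalization, a log and scaling of each array recovered them to within 0.0050. Accessions named 32994 of 56605 probes through RefSeq (GRCm38.p6). Here, a probe was used if every array of some group showed it well above background. Outlier-marked spots were set aside, signals were quantile normalized on the log2 scale, and a probe lacking any value was dropped. limma 3.58.1 in R 4.3.3 fitted 4 group means, with Benjamini-Hochberg adjustment over 37253 probes and a threshold of 0.05. *P2ry12* came from the same fit over 38041 probes, with 11 residual degrees of freedom. In simulated data for Atm-/- NR against Atm-/- veh, 63.5% of 200 probes changed by 1 (log2) and 16% of 200 changed by 0.5 were recovered among 37253. These probes were drawn at random, with noise independent between probes. The members had a larger spread than most genes and varied together, so that these shares do not give the recovery of the members.

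The members and all gene lists were chosen with earlier results of these data known. Named are every member with every probe, *Atm*, the called genes of each microglial list or otherwise those with the largest changes, and the 10 genes most like the mean of the members. Values beyond that rule, and the differences between members within an array, were chosen after they were seen. P-values set a difference between groups against the spread between arrays of a group, and the number of arrays limits the precision. That spread holds no variation between slides or rows, since the arrays of a group shared a slide and a row. Alternatives were scaling to the 75th percentile, normexp (offset 50) on median intensities, the deposited z-scores, other filters on dim probes, the mean of all probes of a gene, a replicate block, the slide as a block, subsets of arrays, each array left out, the methods' t-test, and their z-ratio rule (size at least 1.5, false discovery rate at most 0.3) with the p of that t-test. The settings without both high arrays and those that keep marked spots were chosen after seeing the data.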

Additional observations from a re-analysis of the deposited data

Results flagged for a closer look

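*Csf1r* on Atm-/- veh 3 was far from the other arrays of its group, at 13.90 against 13.24 for the next highest. The gap was 0.88 of the range of the group, above Dixon's 95% critical value for 4 samples. It was the only one among 35 groups of 4 arrays examined for the members, and chance gives about 1 in 20. No result met the other criteria.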

How the results depend on the processing

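Over 32 alternatives, 16 of which left out 1 array each, the number of members called was 0 in every comparison except Atm-/- NR against Atm-/- veh. There it was 1 (*Itgam*) with a replicate block and 2 by the methods' t-test at its threshold, and 0 to 1 when single arrays were left out, the call being *Itgam* without Atm-/- veh 2. With the replicate block the change of *Itgam* was -0.59 (limma adjusted p = 0.029). The deviations of same-numbered arrays correlated from -0.33 to 0.37, and above 0.1 in 6 of 24 pairs. Differently numbered arrays were not compared, so that these values do not settle whether the replicate numbers pair the arrays. The z-ratio rule called 0 members in the 4 comparisons it covers. In Atm-/- NR against Atm-/- veh the median change of the members was -0.19 in the main fit and -0.031 on arrays with Y-linked signal. Leaving out single arrays, it ran from -0.29 to -0.041 in Atm-/- NR against Atm-/- veh, from -0.18 to 0.18 in Atm-/- veh against WT veh, from -0.092 to 0.19 in WT NR against WT veh, from -0.28 to -0.15 in Atm-/- NR against WT NR and from -0.31 to 0.052 in the interaction. The slide as a block could not be fitted for genotype.

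Of the changes of single genes, 66 values turned sign, none of a called gene. On arrays with Y-linked signal these were *Cd68* (-0.17) and *Trem2* (-0.078) in Atm-/- veh against WT veh, *Trem2* in Atm-/- NR against Atm-/- veh (0.057), *P2ry12* in Atm-/- NR against WT NR (-0.13), and *Csf1r* (0.094), *Itgam* (-0.15), *P2ry12* (0.0094) and *Tyrobp* (0.031) in WT NR against WT veh. Without WT veh 4 and Atm-/- veh 3 they were *Trem2* in Atm-/- NR against Atm-/- veh (0.026) and, in WT NR against WT veh, *Cd68* (0.043), *Csf1r* (0.20), *P2ry12* (0.012), *Tmem119* (0.29) and *Tyrobp* (0.056). With the mean of all probes of a gene they were *Cx3cr1* in Atm-/- NR against Atm-/- veh (-0.050) and in the interaction (-0.12), and *Csf1r* in WT NR against WT veh (0.10). With normexp they were *Trem2* in Atm-/- veh against WT veh (-0.0038) and *Tmem119* (0.021) and *Trem2* (-0.020) in WT NR against WT veh. In that comparison *Csf1r* and *Trem2* also turned with scaling to the 75th percentile (0.0016 and -0.0012), *Csf1r* with probes detected on all arrays (0.00030), and *Trem2* with the deposited z-scores (-0.0025 z units) and without a filter on dim probes (-0.0036). In Atm-/- NR against WT NR the changes that turned sign when single arrays were left out ran over Aif1 -0.27 to 0.018, Cd68 -0.15 to 0.0022, P2ry12 -0.043 to 0.15, Trem2 -0.21 to 0.031. In WT NR against WT veh the changes that turned sign when single arrays were left out ran over Aif1 -0.086 to 0.27, Cd68 -0.39 to 0.043, Csf1r -0.091 to 0.20, Cx3cr1 -0.088 to 0.27, Itgam -0.023 to 0.24, P2ry12 -0.31 to 0.012, Tmem119 -0.30 to 0.29, Trem2 -0.10 to 0.17, Tyrobp -0.23 to 0.056. In the interaction the changes that turned sign when single arrays were left out ran over Aif1 -0.083 to 0.32, Cd68 -0.52 to 0.079, Csf1r -0.082 to 0.29, Cx3cr1 -0.032 to 0.33, Trem2 -0.27 to 0.025, Tyrobp -0.34 to 0.0036. In Atm-/- veh against WT veh the changes that turned sign when single arrays were left out ran over Cd68 -0.17 to 0.44, Tmem119 -0.20 to 0.40, Trem2 -0.078 to 0.22, Tyrobp -0.20 to 0.15. In Atm-/- NR against Atm-/- veh the changes that turned sign when single arrays were left out ran over Trem2 -0.17 to 0.026. Apart from settings that leave out arrays or probes, the cause was not tested.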

Other observations

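Lists of other myeloid and blood cells were measured beside the members. Of 10 monocyte and neutrophil markers 8 were tested. Their median change was 0.56 in Atm-/- veh against WT veh (-0.03 over all named genes) and 0.46 in Atm-/- NR against WT NR (0.01). In either, 0 passed (limma, adjusted p under 0.05), beside 0.0538% and 0.0597% of named genes. At an unadjusted p under 0.05 (limma) there were 0 and 0, beside 16.8% and 4.34%. The largest difference in Atm-/- veh against WT veh was that of *Lcn2* (1.13). The 8 border macrophage markers had medians of -0.19 in Atm-/- veh against WT veh (-0.03 over all named genes) and 0.14 in Atm-/- NR against Atm-/- veh (0.04). In either, 0 passed (limma, adjusted p under 0.05), beside 0.0538% and 11.5% of named genes. At an unadjusted p under 0.05 (limma) there were 0 and 1, beside 16.8% and 30.5%. *Ms4a7* showed the largest change in both comparisons (-0.46 and 0.55). Among the lists of other cell types, the only gene that passed in any comparison did so in Atm-/- NR against Atm-/- veh, where 11.5% of named genes passed. It was *Car8*, a Purkinje cell gene, which rose by 1.10 ± 0.31 (SE, limma adjusted p = 0.042). Its call was lost in 11 of 20 alternative settings, 7 of which left out a single array (Atm-/- veh 1, Atm-/- veh 3, Atm-/- veh 4, Atm-/- NR 1, Atm-/- NR 2, Atm-/- NR 3, Atm-/- NR 4), with changes there of 0.91 to 1.17 and limma adjusted p up to 0.104. The settings that lost it include the arrays with Y-linked signal alone, where the change was 0.89 (limma adjusted p = 0.194). In Atm-/- NR against Atm-/- veh the endothelial list had a median of -0.28, and the astrocyte list -0.02, with *Gfap* at -0.75, which did not pass.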
